A study of Mus musculus with 2 samples.

Results

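The fatty acid elongases and 3 desaturases of the mouse were followed through the differentiation of brown preadipocytes. These are the Elovl family, with Elovl1 to Elovl7, and the Fads family, with Fads1, Fads2 and Fads3. Members were taken by their symbol in the table of FPKM values (fragments scaled to transcript length and to library size), which held all 10 of them among 23361 genes with values. RNA-Seq was performed on 1 library of preadipocytes before induction (D0) and 1 library of adipocytes at D7, and the question was how expression changes during adipogenesis. The cells came from interscapular brown adipose tissue of newborn C57BL/6 mice and grew in DMEM with 20% FBS. Per the labels, the differentiation medium held insulin (0.1 μM), T3 (1 nM) and 10% FBS. Induction used indomethacin (0.125 mM), dexamethasone (2 μg/ml) and IBMX (0.5 mM). All of these are listed alike for both libraries, although the D0 cells were taken before induction. The labels call the cells primary cultures, while the methods of the study describe immortalization with large T, other concentrations of insulin and dexamethasone, and pups of either sex born to a purchased C57BL/6J mother. Each stage was represented by 1 library, so that differences lack replicates and p-values are not given.

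Long fatty acids are made in the membrane of the endoplasmic reticulum from palmitate or from dietary fatty acids. In each turn of the elongation cycle an Elovl enzyme condenses the acyl chain with malonyl-CoA, and other enzymes then reduce, dehydrate and again reduce the product. Fads1 and Fads2 add double bonds between an existing double bond and the carboxyl end, and so produce the polyunsaturated fatty acids of membrane lipids. The Elovl enzymes differ in the chains they accept, and Elovl3 is a known marker of brown adipose tissue, where cold induces it.

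A primer pair for Elovl3 stands among the qPCR primers of the study, and is shown because it gives the part of the transcript that such an assay reads.

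Elovl3 forward primer: tccgcgttctcatgtaggtct
Elovl3 reverse primer: ggacctgatgcaaccctatga

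The primer listed as reverse runs along the sense strand of exon 1 (chr19:46132108-46132128), and the one listed as forward runs antisense in exon 2 (chr19:46133177-46133197). The pair matched both annotated Elovl3 transcripts and no other gene of GENCODE M21. The product would be 140 bp on ENSMUST00000237098.1, which corresponds to the transcript named in the table, and 234 bp on ENSMUST00000043739.5.

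RefSeq promoter windows (GRCm38.p6) were found for 8 of the 10 members, and none was taken for Elovl3 and Fads1. Shown are the 250 bases before the start of Elovl4 and Elovl6, which were higher at D7, and of Elovl5 and Fads3, which were abundant at both stages and changed little. Capitals mark letters that match a searched motif. Elovl4 lies at chr9:83806306-83806555, Elovl6 at chr3:129532136-129532385, Elovl5 at chr9:77917115-77917364 and Fads3 at chr19:10041298-10041547, with Elovl4 on the minus strand and the others on the plus strand.

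Elovl4: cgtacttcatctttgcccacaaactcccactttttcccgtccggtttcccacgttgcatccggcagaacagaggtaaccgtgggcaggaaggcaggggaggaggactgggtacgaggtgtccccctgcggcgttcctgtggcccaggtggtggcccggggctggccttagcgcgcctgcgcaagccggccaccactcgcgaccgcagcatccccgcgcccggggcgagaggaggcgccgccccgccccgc
Elovl6: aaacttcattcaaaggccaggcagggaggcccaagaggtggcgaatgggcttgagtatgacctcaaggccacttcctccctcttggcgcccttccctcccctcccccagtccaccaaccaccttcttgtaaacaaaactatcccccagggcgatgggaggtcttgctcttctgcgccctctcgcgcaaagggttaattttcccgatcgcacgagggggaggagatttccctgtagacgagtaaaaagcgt
Elovl5: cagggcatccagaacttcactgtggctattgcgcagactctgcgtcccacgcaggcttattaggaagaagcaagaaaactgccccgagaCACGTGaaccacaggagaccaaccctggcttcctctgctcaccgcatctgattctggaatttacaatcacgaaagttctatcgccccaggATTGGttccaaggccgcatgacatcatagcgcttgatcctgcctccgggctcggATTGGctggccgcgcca
Fads3: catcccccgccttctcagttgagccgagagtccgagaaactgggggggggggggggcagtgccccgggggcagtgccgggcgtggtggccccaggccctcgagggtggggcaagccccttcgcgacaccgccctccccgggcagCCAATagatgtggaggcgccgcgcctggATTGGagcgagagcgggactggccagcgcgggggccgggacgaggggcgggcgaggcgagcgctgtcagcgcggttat

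Motifs were searched on both strands over the 250 bases before and the 50 bases after the start. CCAAT, the NF-Y box, was found in the windows of 4 members (Elovl1, Elovl4, Elovl5 and Fads3) and in 37.4% of the 32851 windows of all genes. The E-box CACGTG was found in Elovl4 and Elovl5 and in 7.15% of all windows. Both matches of Elovl4 lie after the start and are therefore not in the stretch shown. The DR1 element was found in a second window of Elovl1 and in 0.381% of all windows. TCACNCCAC (the core of a sterol regulatory element), the DR4 element and TTGCGCAA (a C/EBP palindrome) matched no window of a member, and 1.24%, 0.253% and 0.183% of all windows. The windows of Elovl2, Elovl6, Elovl7 and Fads2 held no match to any of these motifs. No matches of different motifs overlapped in the members.

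Both libraries held values above 0 for 14986 genes, and those with a D7-to-D0 ratio of at least 2.0 or at most 0.5 were counted as higher or lower. Fragments were estimated with a calibration on single-exon genes, and the libraries corresponded to 21418185 (D0) and 18251600 (D7) fragments. Ratios carry 95% intervals by the exact Clopper-Pearson method, which cover counting error only. Fragments of genes with several exons are approximate. Of 6 fibroblast and preadipocyte markers, Thy1 and Col1a1 were lower by at least 2.0-fold, Cd34 was higher (ratio 8.29), and 3 lay between, Pdgfra among them (0.973). Together they summed to 4671 (D0) and 2508 (D7) FPKM, while the 7 adipocyte markers rose from 42.1 to 17464 and all were higher by at least 2.0-fold. Of 6 brown adipocyte markers 3 were higher by at least 2.0-fold, Ucp1 and Cidea were listed at 0 at D0 only, and Prdm16 had a ratio of 1.22. All 7 macrophage markers were higher by at least 2.0-fold, and together summed to 129.6 (D0) and 424 (D7) FPKM. The 3 Schwann and nerve markers were also all higher (1.18 and 4.16 in sum), and the 5 endothelial markers summed to 1.04 and 2.39. Of the skeletal muscle markers, Myf5, Myod1 and Ckm were listed at 0 in both libraries, Acta1 fell from 45.4 to 1.73 FPKM, and Myh1 rose from 0.0239 to 0.563 FPKM on about 3 and 59 fragments. The 6 muscle markers summed to 45.4 and 2.33, nearly all of it Acta1 at D0. Hba-a1 of erythroid cells and Alb and Ttr of hepatocytes were listed at 0 in both. The part of macrophages and of the other cells in the values of the elongases and desaturases was not tested. In such bulk libraries fewer cells of a type and less RNA per cell cannot be told apart.

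Of the 10 members, 8 were above 0 in both libraries. Among these 8, Elovl4 and Elovl6 had D7-to-D0 ratios of at least 2.0, against 18.5% of all genes. None of the 8 was lower by at least 2.0-fold, against 13.2% of all genes, and none had an interval wholly at or below 0.5, against 7.09%. Among genes with an FPKM of at least 1 in a library the shares were 15.6% higher and 11.9% lower. Elovl3 was listed at 0 at D0 only and Elovl2 at D7 only. The median log2 ratio of the 8 members was 0.45, a ratio of 1.37, and that of all genes was 0.015. Ratios were above 1 for 7 of the 8 members and for 50.6% of all genes. The direction of 2 of these 7, Elovl5 and Fads1, turned with a floor of 0.01 FPKM and libraries scaled to their medians. The median log2 ratio there was -0.35 over all 23361 genes with values, of which 6690 were listed at 0 in both libraries. That value is the shift that the scaling alone gives each gene listed at 0 in both. In that setting 57.5% of all called genes were lower, against 41.7% on the deposited scale.

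**Figure D1:**
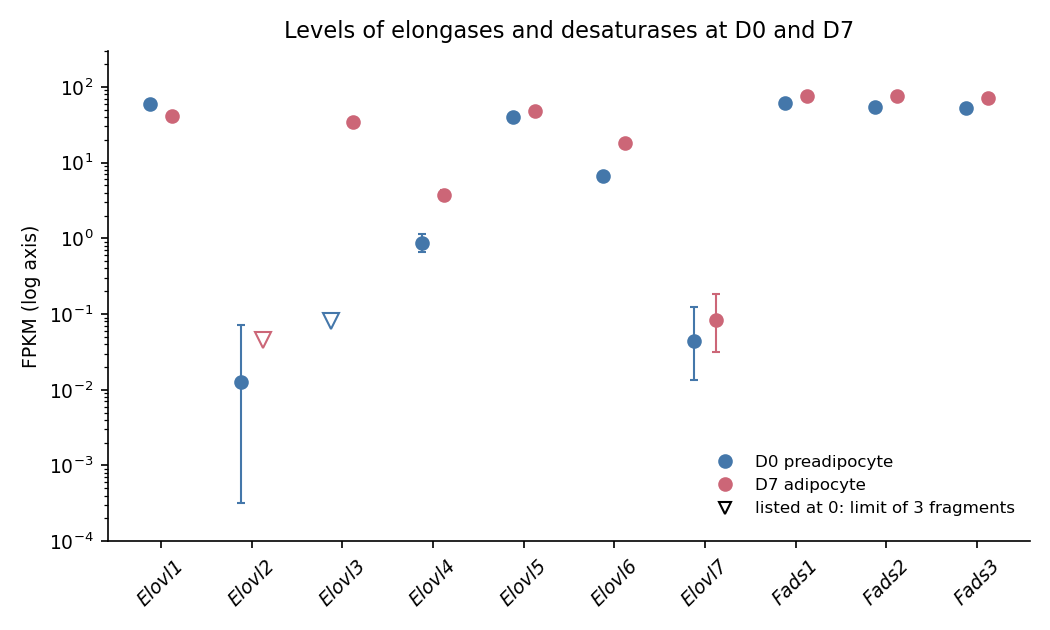
FPKM of each elongase and desaturase (log axis) in the D0 library (blue) and the D7 library (red), with exact 95% Poisson intervals of counting error and open triangles at the limit of 3 fragments for genes listed at 0. Elovl3 was listed at 0 at D0 and stood at 34.2 at D7, while the 3 Fads genes, Elovl1 and Elovl5 lay between 40.3 and 75.9 in both libraries.

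The elongases of saturated and monounsaturated chains are given first. Elovl3 (ENSMUSG00000038754.5, chromosome 19, 46131897 to 46135694, plus strand) makes very long saturated and monounsaturated chains. It was listed at 0 at D0, where 3 fragments would be an FPKM of 0.0822, and its FPKM of 34.2 at D7 came from about 1060 fragments. The D7 value was thus 416-fold above this limit of 3 fragments. That figure is not a lower bound from counting error. The exact counting interval of Elovl3 reached up to 0.101 FPKM at D0 and began at 32.1 at D7. At D7 the level of Elovl3 was at or above that of 89.6% of genes. Its gene body overlaps Pitx3 on the opposite strand by 10 bp, and Pitx3 stood at 0 FPKM in the D0 library and 0.183 in the D7 library.

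Elovl6 (ENSMUSG00000041220.10, chromosome 3, 129532355 to 129638495, plus strand) extends palmitate to stearate and is a known target of SREBP-1c. Its FPKM was 6.75 at D0 and 18.2 at D7, from about 835 and 1920 fragments. The ratio was 2.70 (95% interval 2.49 to 2.93), and 2.12 with the floor of 0.01 and the library median. Elovl6 shared 15.2% of its transcript with transcripts of 38 other genes, at 5 or fewer mismatches in 90 bases, so that some of its fragments are uncertain. No other elongase or desaturase of the 10 had such a stretch.

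Elovl1 (ENSMUSG00000006390.15, chromosome 4, 118428093 to 118432953, plus strand) makes the very long saturated chains of sphingolipids. It was the only member with a ratio below 1 among those above 0 in both libraries. The D0 library gave 59.2 FPKM and the D7 library 41.5, a D7-to-D0 ratio of 0.701 (0.639 to 0.769), which did not reach 0.5. With the floor of 0.01 and the library median this ratio was 0.549. At its 3′ end Elovl1 overlaps the cell cycle gene Cdc20 on the opposite strand by 53 bp. Cdc20 stood at 11.2 FPKM in the D0 library and 2.02 in the D7 library, and the methods describe digestion of the second cDNA strand. Whether FPKM was counted by strand is not given in the sources used here. The part of this overlap in the value of Elovl1 was not tested.

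Elovl7 (ENSMUSG00000021696.9, chromosome 13, 108214404 to 108285683, plus strand) also extends long saturated chains. It stood at 0.0443 FPKM in the D0 library and 0.0833 in the D7 library, from about 4 and 6 fragments. The interval of its ratio of 1.88 ran from 0.418 to 8.49, so that no change of Elovl7 was detectable at this depth.

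Of the elongases of polyunsaturated chains, Elovl5 was abundant and Elovl2 was hardly seen. Elovl5 (ENSMUSG00000032349.13, chromosome 9, 77917364 to 77984519, plus strand) extends the polyunsaturated chains that Fads2 has desaturated. The D0 library gave 40.3 FPKM and the D7 library 47.7, from about 2249 and 2266 fragments, a D7-to-D0 ratio of 1.18 (1.12 to 1.26) on the deposited scale that was 0.928 with the floor of 0.01 and the library median. Elovl2 (ENSMUSG00000021364.16, chromosome 13, 41182381 to 41220405, minus strand) acts later, on the way to docosahexaenoic acid. About 1 fragment was behind its D0 value of 0.0127 FPKM, and the D7 value was 0, where 3 fragments would be 0.0449 FPKM. Both values were under the limit of 3 fragments, so that no ratio is given and Elovl2 was not detectable at this depth.

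Elovl4 (ENSMUSG00000032262.13, chromosome 9, 83778692 to 83806277, minus strand) makes ultra-long chains and is best known from retina, skin and brain. Its FPKM was 0.875 at D0 and 3.76 at D7, from about 53 and 193 fragments. The ratio of 4.29 (3.14 to 5.92) was the highest of the members with a ratio, at or above that of 92.5% of all genes. With a pseudocount of 1 it was 2.54, close to the 2.48 of Elovl6. The intervals of Elovl4 and Elovl6 both lay wholly above 2, as did those of 11.2% of all genes, and did not overlap each other. The level of Elovl4 at D7 was at or above that of 60.6% of genes, and that of Elovl6 at or above 82.3%.

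**Figure D2:**
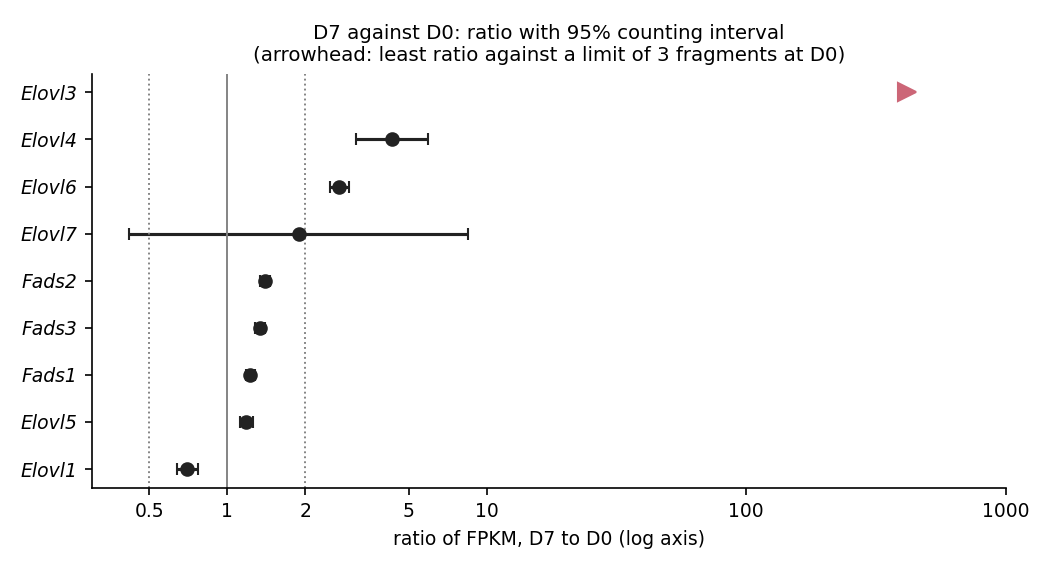
Ratio of FPKM at D7 to D0 (log axis) with exact 95% counting intervals and dotted lines at 0.5 and 2. The arrowhead for Elovl3 stands at 416, its D7 value over a limit of 3 fragments at D0. Elovl4 and Elovl6 lie beyond 2, Elovl1 lies below 1, and the interval of Elovl7 spans 1.

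The 3 Fads desaturases were abundant at both stages and changed by less than 2.0-fold. Fads2 (ENSMUSG00000024665.8, chromosome 19, 10062765 to 10101746, minus strand) performs the first desaturation of linoleic and alpha-linolenic acid. The D0 library gave 54.1 FPKM and the D7 library 75.9, a D7-to-D0 ratio of 1.40 (1.34 to 1.47). With the floor of 0.01 and the library median this ratio was 1.10. Fads1 (ENSMUSG00000010663.5, chromosome 19, 10182888 to 10196877, plus strand) then produces arachidonic and eicosapentaenoic acid. The D0 library gave 61.6 FPKM and the D7 library 75.6, a D7-to-D0 ratio of 1.23 (1.18 to 1.28) on the deposited scale that was 0.960 with the floor of 0.01 and the library median. Fads3 (ENSMUSG00000024664.5, chromosome 19, 10041569 to 10060110, plus strand), which acts on sphingoid bases, stood at 53.4 FPKM in the D0 library and 71.2 in the D7 library, a D7-to-D0 ratio of 1.33 (1.28 to 1.39). Its ratio was 1.05 with the floor of 0.01 and the library median. The intervals of Fads2 and Fads3 overlapped each other and that of Fads1 lay below that of Fads2. Between 3449 and 4559 fragments stood behind each of these 6 values. Each of the 3 stood at or above at least 93.4% of all genes in each library.

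The Fads genes lie beside each other on chromosome 19, and 5 genes around them were looked at for comparison. Fads3 and Fads2 lie tail to tail 2655 bp apart, and Fads1 starts 81.1 kb from the start of Fads2. On one side Rab3il1 had a ratio of 1.09 (1.00 to 1.18), and Best1, of low level, had 0.428 (0.201 to 0.850). On the other side Fen1, a nuclease of DNA replication, fell from 7.22 to 3.30 FPKM, D7-to-D0 ratio 0.457 (0.367 to 0.567). Tmem258 beyond it had a ratio of 0.679 (0.630 to 0.732), and Myrf of 0.987 (0.785 to 1.24). The intervals of Rab3il1 and Myrf overlapped that of Fads1, while those of Best1, Fen1 and Tmem258 lay below all 3 Fads intervals.

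**Figure D3:**
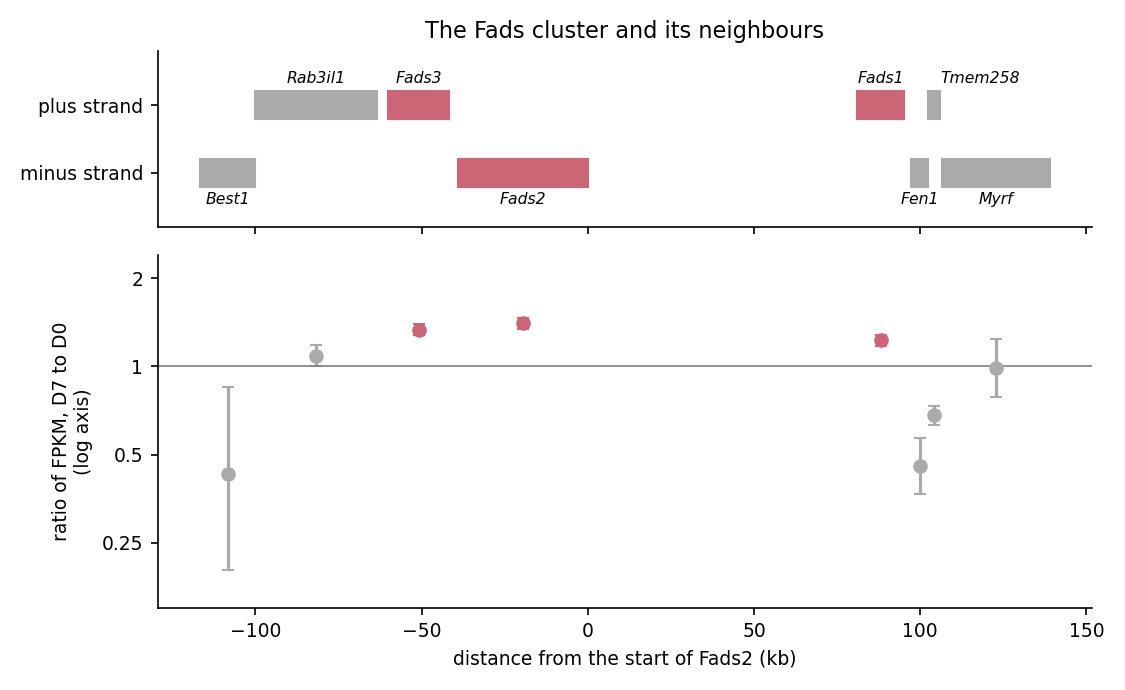
Genes around the Fads cluster drawn to scale by strand (top) and their ratio of FPKM at D7 to D0 with 95% counting intervals (bottom, log axis), against the distance from the start of Fads2 in kb. On the deposited scale the 3 Fads genes (red) lie between 1.23 and 1.40, and Fen1 (0.457) and Tmem258 (0.679) next to Fads1 lie below 1.

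Since FPKM is per length, levels were also compared between the genes. At D0 Fads1 and Elovl1 stood highest and did not differ beyond counting error (ratio 1.04, interval 0.977 to 1.11). Fads2 and Fads3 followed and could not be separated either (1.01, 0.969 to 1.06). Elovl5 came next, and Elovl6 was 5.97-fold below it. Elovl4 was then 7.71-fold below Elovl6, and Elovl7 and Elovl2 were not separated from each other. At D7 Fads2 and Fads1 could not be separated (1.00, 0.963 to 1.05), and Fads3 stood slightly below them. Elovl5, Elovl1, Elovl3, Elovl6, Elovl4 and Elovl7 followed in this order, each neighbouring pair separated beyond counting error. Elovl5 was 1.15-fold above Elovl1 at D7 (1.06 to 1.25), whereas Elovl1 was the higher of the pair at D0.

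The make-up of the elongase family differed more between the libraries than that of the Fads family. Summed over the 7 elongases, FPKM was 107 at D0 and 145 at D7. Elovl1 held 55.2% of this sum at D0 and 28.5% at D7. Elovl3 held none at D0 and 23.5% at D7. Elovl6 passed from 6.30% to 12.5% and Elovl5 from 37.6% to 32.8%. Without Elovl3 the sum was 107 and 111, a ratio of 1.04. The Fads sum was 169 at D0 and 223 at D7. Each Fads gene held between 31.6% and 36.4% of it at D0 and between 32.0% and 34.1% at D7.

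**Figure D4:**
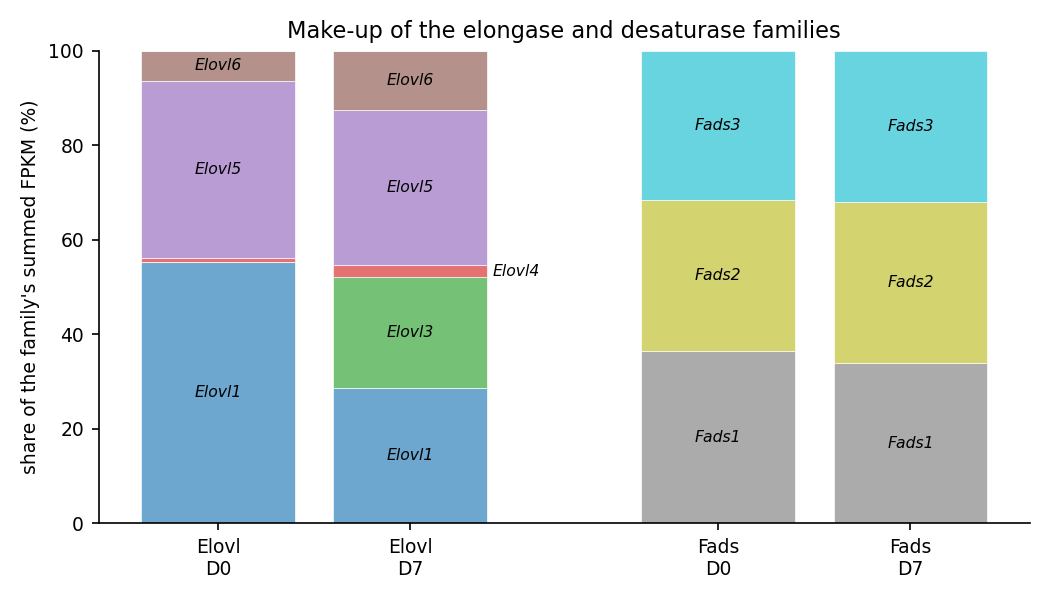
Share of each gene in the summed FPKM of its family (%), in the D0 and the D7 library, for the 7 Elovl genes and the 3 Fads genes. Elovl1 held 55.2% and then 28.5% of the elongase sum and Elovl3 reached 23.5% at D7, while the shares of the Fads genes stayed between 31.6% and 36.4%.

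The partners of the elongases in the cycle were compared in the same way. Of 6 genes 3 were higher by at least 2.0-fold and none was lower, with a median log2 ratio of 0.75. Hsd17b12, which performs the first reduction, rose from 87.1 to 312 FPKM, D7-to-D0 ratio 3.58 (3.44 to 3.73). Tecr, which performs the last reduction, rose from 116 to 272, a ratio of 2.35. The dehydratases split. Hacd2 (listed as Ptplb) rose from 7.52 to 44.4, a ratio of 5.90 (5.39 to 6.48). Hacd1 (Ptpla) had a ratio of 0.796, Hacd3 (Ptplad1) of 1.21 and Hacd4 (Ptplad2) of 0.911. Among the dehydratases Hacd1 was the highest at D0, at 58.3, and stood at 46.4 at D7, close to Hacd2.

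The 7 other desaturases had a median log2 ratio of 1.25, with 4 higher by at least 2.0-fold and none lower. With a pseudocount of 1 this median was 0.25. Scd1, which converts stearate to oleate, stood at 64.9 FPKM in the D0 library and 10775 in the D7 library. Scd2 rose from 281 to 668, a ratio of 2.37, but shared 11.4% of its transcript with an annotated transcript of Scd1. The transcript taken for the Scd1 value shared no such stretch with another gene. Scd3 rose from about 2 fragments at D0 to an FPKM of 47.7 at D7. That value was 1129-fold above the limit of 3 fragments, and the interval of the ratio began at 468. Scd3 shared 7.80% of its transcript with other genes. Scd4 had a ratio of 2.86 (1.09 to 7.03) on about 8 and 18 fragments. Degs1, which desaturates dihydroceramide, had a ratio of 0.931 (0.890 to 0.973), and Degs2 of 0.731 and Fads6 of 1.35 had intervals that include 1.

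Electrons reach these desaturases through cytochrome b5. Of 6 genes for forms of cytochrome b5 and its reductases, 2 were higher by at least 2.0-fold and none lower. Which of these forms serve the desaturases was not tested. Cyb5a (listed as Cyb5) rose from 140.0 to 535 FPKM, D7-to-D0 ratio 3.82, and Cyb5b from 51.5 to 119, a ratio of 2.31. Of the reductases, Cyb5r3 was the most abundant and had a ratio of 1.38. Cyb5r4 had a ratio of 1.05, and that of Cyb5r1, 0.518 (0.485 to 0.553), did not reach 0.5. Cyb5r2 had 0.540 on about 22 and 10 fragments, with an interval that includes 1 (0.226 to 1.18).

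Elongation uses malonyl-CoA, and 9 genes of malonyl-CoA and palmitate metabolism were followed. Of these 9 genes 8 were higher by at least 2.0-fold, with a median log2 ratio of 3.77. Acacb, a carboxylase that makes malonyl-CoA, had the highest ratio, 67.5 (54.3 to 84.4), and Mcat the lowest, 1.93. Mlycd, which breaks malonyl-CoA down, was among the 8, with a ratio of 5.43 (4.64 to 6.35). Summed over the 9 genes FPKM was 299 at D0 and 4992 at D7.

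Among 14 regulators of this pathway 7 were higher by at least 2.0-fold and none lower, with a median log2 ratio of 1.40. Srebf1, whose product SREBP-1c drives Elovl6, Fads1 and Fads2 in other tissues, rose from 24.2 to 146 FPKM, D7-to-D0 ratio 6.04. Srebf2 stood at 46.7 at D0 and 23.7 at D7, and its ratio of 0.507 did not reach 0.5. It was the lowest ratio of the list. Thrsp, a lipogenic gene, stood at 1.25 FPKM in the D0 library and 3763 in the D7 library, a D7-to-D0 ratio of 3017 (2130 to 4569). Mlxipl, which encodes ChREBP, had about 1 fragment at D0 and an FPKM of 30.5 at D7. That D7 value was 751-fold above the limit of 3 fragments, and the interval of the ratio began at 404. Which of Thrsp and Mlxipl had the higher ratio can therefore not be told. Of 10 genes listed for peroxisomal steps and docosahexaenoic acid, 7 were higher by at least 2.0-fold and none lower. Their median log2 ratio was 1.48, and Abcd2, a transporter of very long chain acyl-CoA, had the highest ratio, 39.3. Acsl6 had the lowest, 0.778 (0.365 to 1.72), on about 19 and 13 fragments.

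The 6 genes listed for activation of polyunsaturated fatty acids and for acyl transfer went both ways. Which chains each of them handles was not tested. Lpcat3 rose 3.52-fold and Agpat3 3.38-fold. Mboat2 was lower by at least 2.0-fold, at 2.03 FPKM in the D0 library and 0.347 in the D7 library, a D7-to-D0 ratio of 0.171 (0.0922 to 0.309). Acsl3 had a ratio of 1.44 and Acsl4 of 0.673. Mboat1 had 0.543 on about 26 and 12 fragments, with an interval that includes 1 (0.249 to 1.11). The median log2 ratio of the 6 genes was -0.025, and its sign depended on the setting, with 0.52 among genes of at least 1 FPKM in a library, 0.13 with a pseudocount of 1 and -0.38 with the floor of 0.01 and the library median.

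**Figure D5:**
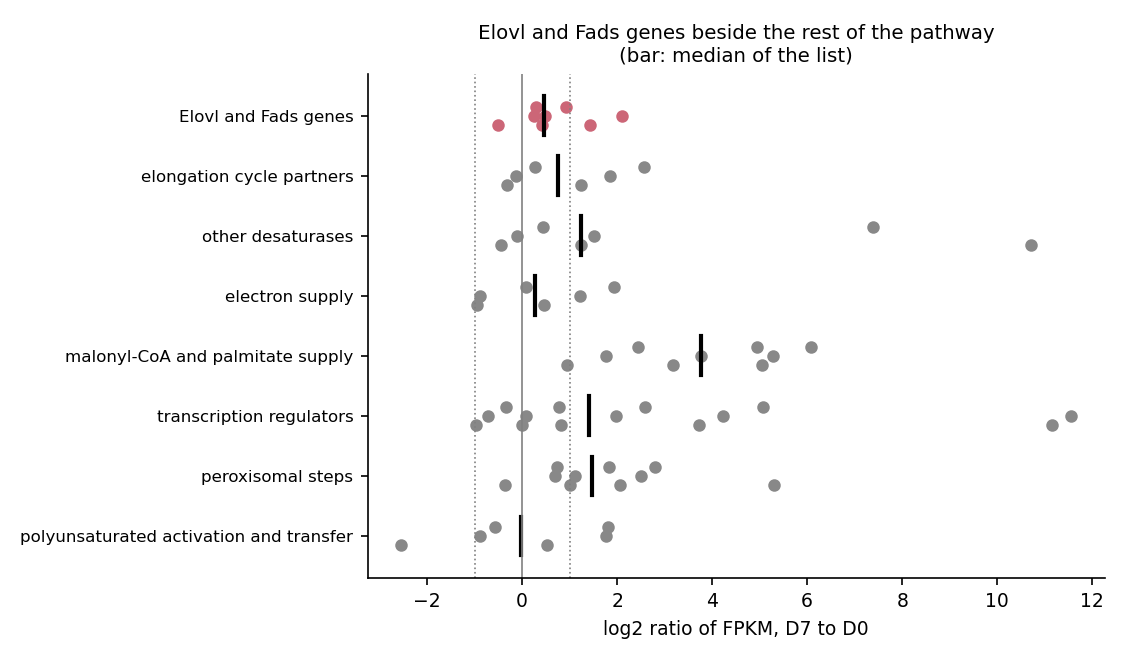
Log2 ratio of FPKM, D7 to D0, of each Elovl and Fads gene above 0 in both libraries (red) and of the genes in 7 lists of the same pathway (grey), with the median of each list as a bar and dotted lines at a 2-fold ratio. The median was 0.45 for the Elovl and Fads genes and 3.77 for the list of malonyl-CoA and palmitate genes.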

How the data were processed

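RNA-Seq of 1 D0 and 1 D7 library was analysed from the FPKM values deposited by the authors. Per the methods, reads with adaptors or low quality and duplicate reads were removed by the authors, and the rest was mapped to mm10 with SOAP2. The submitters' processing notes name Bowtie2, and the program and annotation for FPKM are not given in the sources used here. With 1 library per stage no test was run. Of 27324 rows 23361 held values. The ratio of FPKM at D7 to D0 was formed for genes above 0 in both libraries, with no pseudocount or filter. Fragments were recovered with a length correction from single-exon genes of at least 600 bp, where 100% of 79 low values at D0 and of 90 at D7 came out whole within 0.1. In genes with several exons 72.3% and 70.5% did, so their fragments are approximate. Values listed at 0 were set against 3 fragments. The recovery was tested on simulated data.

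Named were all 10 members, every gene of a pathway list of up to 7 genes, and of longer lists the highest and lowest ratio. Overlapping and neighbouring genes were named by position. Srebf1, Mlxipl and Mlycd fall outside this rule and were picked with their values in view. The members and the lists of pathway and marker genes were chosen with earlier results of these data known. Sequences and promoters came from GENCODE M21 and RefSeq tables (GRCm38.p6). Transcripts were compared with BLAST+ 2.17.0, and Python 3.11.15 with pandas 2.3.3, numpy 2.4.6, scipy 1.17.1 and matplotlib 3.10.9 was used for the rest. Alternatives were pseudocounts of 0.1 and 1, rescaling to TPM, to the median ratio and to the upper quartile, a minimum FPKM of 1, a threshold of 4-fold, summed rows of a symbol and, added after seeing the data, at least 10 fragments and a floor of 0.01 FPKM combined with scaling to library medians, which was chosen with the study's counts of changed genes known.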

Additional observations from a re-analysis of the deposited data

How the results depend on the processing

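With 1 library per stage no replicate could be left out. No paired analysis was possible because each stage had 1 library and the labels carry no replicate numbers. At a threshold of 4-fold, 1 of the 8 members above 0 in both libraries, Elovl4, was higher, and Elovl3 had no ratio there. The ratio of Elovl4 was 3.96 with a pseudocount of 0.1 and 3.36 with the floor and median given next. With either pseudocount and with that floor all 10 members had a ratio. In each of these settings 3 were higher by at least 2.0-fold, namely Elovl3, Elovl4 and Elovl6. The median log2 ratio, over all 10 members, was 0.35 with a pseudocount of 1. It was 0.099 with the floor of 0.01 and the library median, an alternative chosen after seeing the data. Under that floor and median the ratios of Elovl5 and Fads1 turned to 0.928 and 0.960. That scaling multiplies the ratio of every gene above the floor in both libraries by the same factor. Of all genes, 1533 were higher and 1021 lower with a pseudocount of 1, and 2836 and 3832 with the floor and median, against 2767 and 1980. Depth limits Elovl2 and Elovl7, with at most 6 fragments in a library.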

Other observations

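The nearest protein-coding genes with values on each side of the elongases that were higher at D7 were looked up as well. Beside Elovl6, Enpep, an aminopeptidase of the cell surface, stood at 0.289 FPKM in the D0 library and 1.89 in the D7 library, a D7-to-D0 ratio of 6.54 (95% counting interval 4.21 to 10.4). Egf, a growth factor gene on its other side, had 0.0916 and 0.275, a ratio of 3.01 (1.34 to 7.37). Beside Elovl4, Sh3bgrl2 had 2.51 and 5.51, a ratio of 2.20 (1.87 to 2.58), and the mitotic kinase gene Ttk had 1.01 and 0.181, a ratio of 0.180 (0.0795 to 0.371). Beside Elovl3, Nolc1 had 17.9 and 13.5, a ratio of 0.754 (0.691 to 0.823). Enpep lay 199635 bp and Egf 39070 bp from Elovl6, and Sh3bgrl2 139891 bp and Ttk 28412 bp from Elovl4. Nolc1 lay 46367 bp from Elovl3. These neighbours were chosen by position alone and no test was run on them.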
